A study of Mus musculus with 84 samples.

Results

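The 6 libraries described here were made from mouse cells on day 6 and day 8 of reprogramming to induced pluripotent stem cells (iPSCs) under constitutively active SMAD3 (+Sm3CA), with 3 libraries on each day. They were chosen by their titles out of 30 libraries in the series, and the sequenced wells of one replicate were summed, so that 18 of 84 wells were used. In both groups, the cells were mouse embryonic fibroblasts (MEFs) of 129 background whose Tg fraction carried a doxycycline-inducible MKOS-ires-mOrange cassette, which encodes Myc, Klf4, Oct4 and Sox2, together with a transactivator driven by the CAG promoter and a Nanog-GFP reporter that disrupts the targeted Nanog allele. The Tg MEFs came from chimeric embryos and were grown among wild-type MEFs, cassette expression was driven with 300 ng/ml doxycycline in medium with 100 U/ml LIF and vitamin C, and mOrange-expressing cells were sorted at each day. Both groups had been infected with a pMXs retrovirus for Smad3CA, in which the C-terminal serines that the receptor phosphorylates are exchanged for acidic residues. A second series infected with a BFP vector (Cont) was otherwise treated the same way and gave 3 libraries on each of those days. The libraries were made by STRT RNA-seq, which counts reads at the 5′ end of transcripts, from sorted bulk cells. Fewer cells of a type and less RNA per cell can therefore not be told apart.

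The reprogramming factors first silence fibroblast genes and bring up epithelial genes, and endogenous pluripotency genes follow late and in few cells. SMAD3 is the transcription factor through which TGF-β and activin receptors act, and it is normally switched on by phosphorylation of its C terminus. The comparison asks which transcripts moved within the +Sm3CA series over this interval.

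Total counts ran from 1154361 to 2208394 reads per library, with the lowest total in day 6 replicate 3. Correlations of log expression over genes lay between 0.954 and 0.960 among the day 6 libraries, between 0.929 and 0.947 among the day 8 libraries and between 0.901 and 0.951 across the days. Day 8 replicate 3 was closer to day 6 replicate 2 (r = 0.951) than to either of the other day 8 libraries (r = 0.947 and 0.929), so the day 8 group was the more spread. Smad3 itself, the gene that was over-expressed, was measured at 49.6, 90.8 and 47.2 normalised counts on day 6 and at 77.9, 82.1 and 48.4 on day 8, and each of these libraries was above all 6 Cont libraries of the same days, whose highest value was 22.02. Its level did not pass the test between the days (log2 fold change 0.12 ± 0.28 (SE), adjusted p = 0.855).

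From day 6 to day 8, 305 genes rose and 379 fell in +Sm3CA among 10237 genes tested, at an adjusted p under 0.05 in edgeR's quasi-likelihood test. These are 2.98% and 3.70% of the genes tested (6.68% in either direction), and they are the background against which the counts in the gene groups are read. The median log2 fold change over all genes was 0.04. The genes that rose had a median log2 fold change of 1.06 and 169 of them changed more than 2-fold, while those that fell had a median of -0.82 and 105 changed more than 2-fold. The libraries of both days did not overlap for 91.1% of the higher and 86.0% of the lower genes, against 21.5% of all genes tested. Because the calls were made on these same libraries, these shares are no independent check of them. The calls leaned on single libraries, and the counts depended on which was left out. Leaving out any library also lowers the power of the test. Without day 6 replicate 3 there were 102 higher and 61 lower genes, without day 8 replicate 2 there were 148 and 118, and without day 8 replicate 3 there were 438 and 624. A core of 66 higher and 43 lower genes was called in all 6 fits that each left out 1 library.

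**Figure D1:**
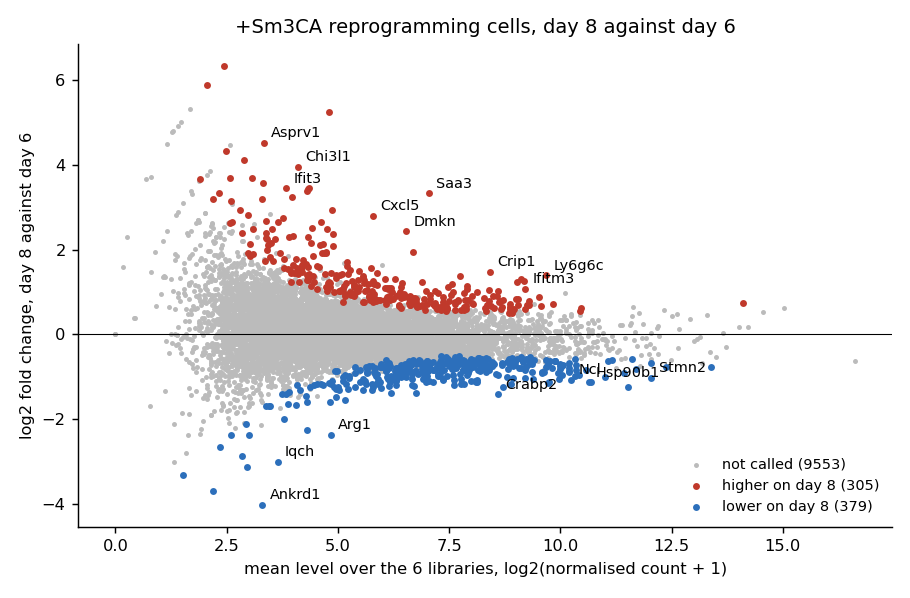
Change of each of the 10237 tested genes in +Sm3CA (vertical axis, log2 fold change of day 8 against day 6) against its mean level over the 6 libraries (horizontal axis, log2 of normalised count plus 1). Red points are the 305 genes called higher, blue points the 379 called lower and grey points the 9553 not called; the strongest changes lie at low levels on the higher side, while the lower genes reach into the abundant transcripts such as Hsp90b1 and Stmn2.

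The rises with the smallest p were those of Cxcl5, Dmkn, Saa3, Crip1 and Cd59a. Saa3 (chromosome 7, 46711998 to 46715700), an acute-phase serum amyloid protein, was at 16.2, 40.4 and 9.45 normalised counts on day 6 and at 216, 154 and 352 on day 8. All 3 day 8 libraries lay far above day 6, and the rise was 10.0-fold (log2 fold change 3.33 ± 0.48, adjusted p = 8.47e-05). Its mean over the +Sm3CA libraries was 3.58 on day 3, and 543 was reached by day 10. Chi3l1, a secreted chitinase-like protein, rose from 1.99 ± 0.622 to 30.2 ± 22.4 normalised counts (SD, n = 3), with adjusted p = 0.0042, and its day 8 libraries at 49.4, 35.5 and 5.65 differed widely among themselves. Dmkn, which encodes the epidermal secreted protein dermokine, was at 23.1, 31.8 and 31.0 on day 6 and at 161, 193 and 111 on day 8, a 5.39-fold rise with no overlap (log2 fold change 2.43 ± 0.29, adjusted p = 2.31e-06).

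Ly6g6c, a GPI-anchored member of the Ly6 family, is a further gene of epithelia. It was measured at 487, 398 and 464 normalised counts on day 6 and at 1092, 1284 and 1191 on day 8, so that the lowest day 8 library exceeded the highest day 6 library by more than the spread within either day (log2 fold change 1.39 ± 0.26, adjusted p = 0.00122). Asprv1, an aspartic protease of the outer epidermis, was represented by 2 reads over the 3 day 6 libraries and by 73 reads on day 8. This is a ratio of 27.7 per read sequenced, with a 95% interval of 7.41 to 233 that covers counting error only. Spint1, an inhibitor of serine proteases at epithelial surfaces, rose 4.40-fold (8.83 ± 2.77 to 40.3 ± 17.6, n = 3, adjusted p = 0.00175 by edgeR), and the related Spint2 rose 1.78-fold (adjusted p = 0.00993), though not without day 6 replicate 3 (0.0588) or day 8 replicate 2 (0.0878). They were the 2 members that passed among 28 tested epithelial junction genes, while Cdh1 (153 ± 24.5 on day 6 and 200 ± 50.5 on day 8) and Epcam (52.5 ± 10.8 and 80.0 ± 4.97) did not pass (adjusted p = 0.247 and 0.116). None of 17 tested keratinocyte and cornified envelope genes was called. Krt14, a keratin of the basal epidermis, was at 204 ± 39.1 on day 6 and 139 ± 30.4 on day 8 (adjusted p = 0.190), whereas Trp63, the regulator of basal keratinocytes, had no read in any of the 6 libraries and Krt5, the partner of Krt14, had none on day 8. Krt8, a keratin of simple epithelia, was at 568 ± 40.2 and 491 ± 63.5 (adjusted p = 0.468).

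Crip1, a small LIM-domain protein, rose 2.79-fold (178 ± 31.8 to 500 ± 154, adjusted p = 9.77e-05), and Cd59a, an inhibitor of the complement membrane attack complex, rose 3.28-fold (16.4 ± 4.50 to 54.9 ± 5.59, adjusted p = 0.000113). Obox6, a homeobox gene known from oocytes, rose from 3.21 ± 1.30 to 34.1 ± 12.3 normalised counts (adjusted p = 0.000473). Ch25h, which makes 25-hydroxycholesterol, had 3 reads on day 6 and 62 on day 8 (a ratio of 15.7 per read sequenced, 95% interval 5.13 to 78.3, adjusted p = 0.00367). Saa3, Chi3l1, Dmkn, Ly6g6c, Asprv1, Spint1, Crip1, Cd59a, Obox6 and Ch25h were each called in all 6 fits that left out a library.

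**Figure D2:**
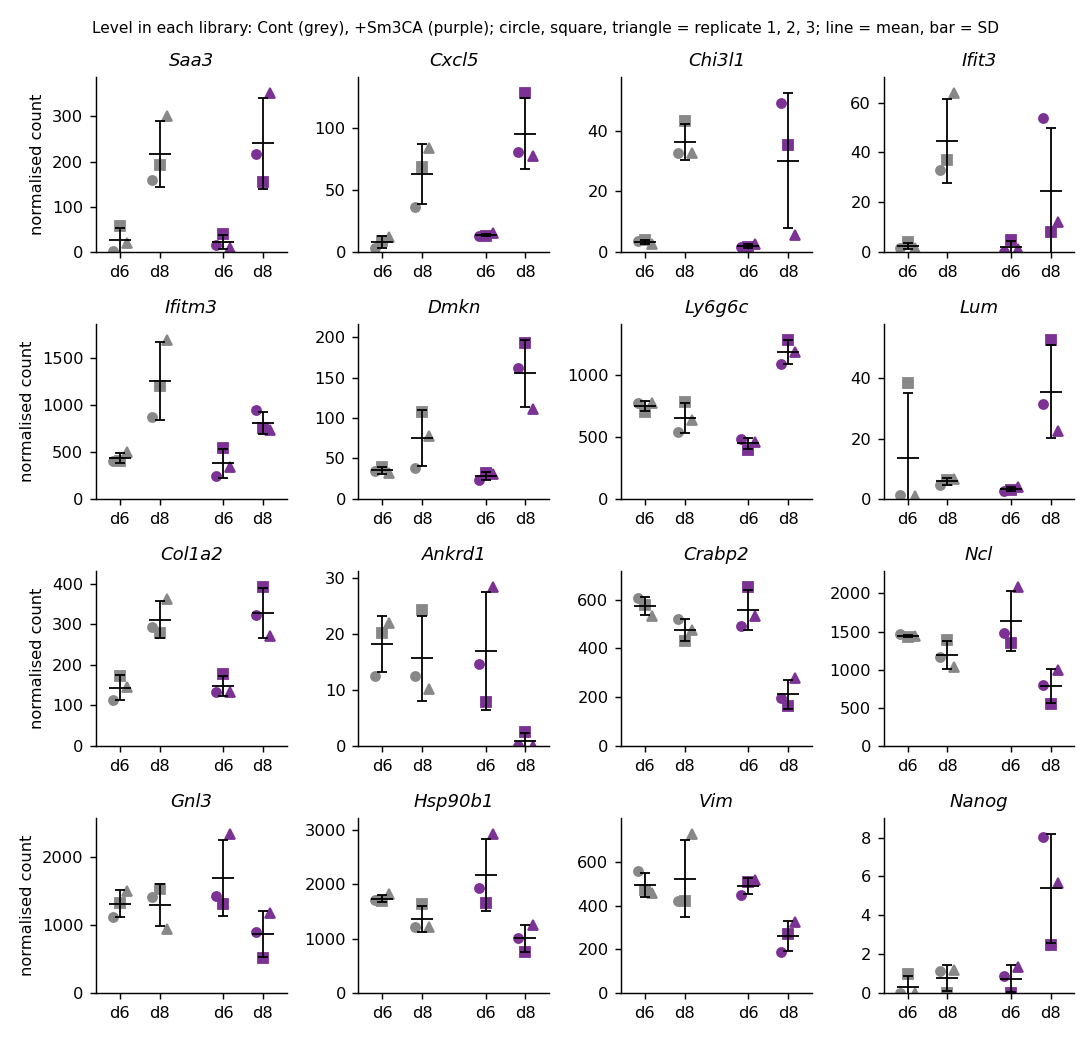
Normalised count (vertical axes, starting at 0) of 16 genes in each library of Cont (grey) and +Sm3CA (purple) on day 6 (d6) and day 8 (d8); circle, square and triangle are replicates 1, 2 and 3, the line is the mean and the bar the SD of 3 libraries. In +Sm3CA, all 3 day 8 libraries lie above day 6 for the 9 genes from Saa3 to Col1a2 and for Nanog, and below it for the 6 genes from Ankrd1 to Vim.

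Genes that interferon induces formed the list with the largest number of rises. Of 30 interferon-stimulated genes tested, 9 were higher on day 8 (Ifitm3, Ifit3, Ifit1, Usp18, Irf9, Lgals3bp, Ddx58, Zbp1 and Cxcl10), none was lower, 28 had a positive change and the median log2 fold change was 1.41. Ifitm3, a membrane protein that blocks virus entry and the most abundant of them, was at 246, 542 and 344 normalised counts on day 6 and at 942, 753 and 731 on day 8 (log2 fold change 1.08 ± 0.22, adjusted p = 0.00252). Ifit1, an RNA-binding antiviral protein, was at 1.71, 17.9 and 6.75 on day 6 and at 79.7, 24.5 and 40.4 on day 8 (5.14-fold, adjusted p = 0.00428). Usp18, which removes ISG15 from proteins and dampens the interferon receptor, rose from 0.855, 14.8 and 1.35 to 35.9, 21.4 and 39.6 (4.88-fold, adjusted p = 0.00428). Ifi47, an interferon-inducible GTPase outside the list, had 2 reads on day 6 and 58 on day 8, at 27.2, 4.29 and 5.65 normalised counts, and its call (adjusted p = 0.00882) was lost without day 8 replicate 1 (0.149), day 6 replicate 1 (0.0508) or day 6 replicate 3 (0.0573).

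Day 6 replicate 2 was the highest day 6 library and day 8 replicate 2 the lowest day 8 library for the summed level of the list, which was 522, 1055 and 698 normalised counts on day 6 and 1946, 1273 and 1522 on day 8. The count of 9 genes went to 4 without day 8 replicate 1, where the calls of Ifit1 (adjusted p = 0.0548) and Ifit3 (0.0725) were lost, and to 13 without day 6 replicate 2 or without day 8 replicate 2. Cxcl10 (adjusted p = 0.0454) did not pass with the replicate block (0.0519). In Cont, 22 of the same 30 genes rose, with a median log2 fold change of 2.55. Rtp4, a receptor transporter that interferon induces, had the smallest p of the list in the test of the difference between the series (9.78 ± 5.64 to 167 ± 44.4 in Cont, 18.0 ± 15.7 to 45.8 ± 19.2 in +Sm3CA), with an adjusted p of 0.0857 for the difference of the changes.

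Interferon acts on such genes through the ISRE, a short promoter element. The sequences of 2 promoters from this group that hold it are given below beside 2 from the nucleolar genes that fell, each as the 150 bases before the RefSeq start site (GRCm38.p6), 5′ to 3′ on the gene's strand; capitals mark matches, on either strand, to the ISRE core searched (GAAA, any 2 bases, GAAA). The Ifit1 stretch is chr19:34640739-34640888 (plus strand), Ifit3 is chr19:34583379-34583528 (plus), Ncl is chr1:86359456-86359605 (minus) and Gnl3 is chr14:31019132-31019281 (minus).
Ifit1: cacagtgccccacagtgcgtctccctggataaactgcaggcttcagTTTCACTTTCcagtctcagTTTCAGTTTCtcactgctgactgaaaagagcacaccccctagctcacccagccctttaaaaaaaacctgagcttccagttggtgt
Ifit3: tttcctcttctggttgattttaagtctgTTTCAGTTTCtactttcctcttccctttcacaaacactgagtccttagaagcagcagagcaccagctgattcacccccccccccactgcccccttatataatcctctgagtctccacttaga
Ncl: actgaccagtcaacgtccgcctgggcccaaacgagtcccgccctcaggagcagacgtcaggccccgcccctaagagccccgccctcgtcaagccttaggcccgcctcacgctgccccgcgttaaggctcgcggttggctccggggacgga
Gnl3: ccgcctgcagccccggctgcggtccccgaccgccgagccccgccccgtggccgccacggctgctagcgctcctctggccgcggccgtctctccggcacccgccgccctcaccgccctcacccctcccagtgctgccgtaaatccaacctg
The match was present in the 250 bases before the start of 11 of 23 interferon-stimulated genes with a promoter sequence (47.8%), of 0 of 22 nucleolar genes and of 3.17% of the 7601 tested genes that matched a promoter by symbol. Over all genes called, it was found for 4.63% of 216 higher and 3.19% of 282 lower genes, both near the share of all genes tested. TATAAA, the core of the TATA box, on either strand, was found for 16.2% of the higher genes, 8.51% of the lower genes and 8.05% of all tested genes, and the median G+C content of the window was 55.5%, 60% and 60%. Of the called interferon genes with a sequence, Ifit1, Ifit3 and Cxcl10 held the match in that window, whereas Ifitm3, Irf9, Lgals3bp and Ddx58 did not. A match describes the letters only, and binding was not measured.

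Chemokines rose beside them. Of 19 tested chemokine and cytokine genes, 6 were higher (Cxcl5, Ccl2, Cxcl1, Il1rn, Ccl7 and Ccl5) and none was lower, with a median log2 fold change of 1.05. Cxcl5, a neutrophil-attracting chemokine, was at 12.8, 13.2 and 14.8 normalised counts on day 6 and at 80.3, 128 and 77.5 on day 8, a rise of 6.96-fold against a narrow day 6 spread (log2 fold change 2.80 ± 0.34, adjusted p = 2.31e-06). Ccl2, which attracts monocytes, went from 156, 283 and 210 to 430, 483 and 451 (2.08-fold, adjusted p = 0.00485). Ccl5 had no read on day 6 and was at 16.7, 0 and 2.42 on day 8, so that its call rested on replicate 1 (adjusted p = 0.0497, and 0.430 without that library). Between 2 and 4 of the genes were called without day 6 replicate 1, 2 or 3 or without day 8 replicate 1 or 2, and 7 without day 8 replicate 3. Cxcl5 and Ccl2 were called each time.

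Some macrophage markers were also higher. Of 11 tested, 3 were higher, namely Aif1, Cd14 and Emr1 (Adgre1, which encodes F4/80), and none was lower, with a median log2 fold change of 1.26. Emr1 was at 9.41, 6.21 and 8.10 normalised counts on day 6 and at 49.4, 49.6 and 33.9 on day 8 (5.56-fold, adjusted p = 0.0053), and Lst1, a leukocyte gene outside that list, was at 3.42, 3.11 and 2.70 and then at 32.8, 44.1 and 28.3 (10.8-fold, adjusted p = 0.000139). The call of Cd14 (adjusted p = 0.0487) was lost when the replicate number was used as a block (0.0661) and was kept in 1 of the 6 fits that left out a library. Between 1 and 4 of the markers were called in those fits, and without day 6 replicate 2 or day 8 replicate 2 Emr1 was the 1 marker left, since Aif1 (adjusted p = 0.00709) was then lost as well (0.0505 and 0.0503). Summed over the 13 markers in the table, the level ranged from 616 to 1078 on day 6 and from 1253 to 2517 on day 8, mostly from Lyz2 (739 ± 194 and 1459 ± 645, adjusted p = 0.0974). The defining receptor Csf1r was at 0.855, 0 and 0 on day 6 and at 1.24, 14.1 and 4.84 on day 8, Ptprc (CD45) was at or below 6.80 in every library, and C1qa was at or below 4.05. The part of macrophages in the rise of interferon, chemokine and acute-phase genes was not tested.

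Some matrix genes rose. Of 39 collagen and matrix genes tested, 6 were higher (Col1a2, Lum, Col3a1, Dcn, Postn and Fn1), none was lower, and 34 had a positive change (median log2 fold change 0.54). The absence of falls holds for the members of that list, since Col2a1, the cartilage collagen, and Lamb1, a laminin chain, are not on it and were called lower. Col1a2, a chain of type I collagen, was at 132, 176 and 134 normalised counts on day 6 and at 322, 391 and 270 on day 8 (2.19-fold, adjusted p = 0.0018), still well below the 2311 of MEFs. Lum, the collagen-binding proteoglycan lumican, rose from 2.57, 3.11 and 4.05 to 31.5, 52.7 and 22.6 (10.9-fold, adjusted p = 0.00443). Its decorin relative Dcn rose 1.73-fold from 436, 484 and 456 to 942, 778 and 681 (adjusted p = 0.00875), but the call was lost without day 6 replicate 3 (0.0532) or day 8 replicate 1 (0.0724).

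The summed matrix level was 4101 ± 599 on day 6, 5833 ± 154 on day 8 and 38170 ± 2223 in MEFs (n = 3 each). Between 4 and 9 matrix genes were called when a library was left out. Col1a1 (53.3 ± 11.2 on day 6 and 99.0 ± 32.8 on day 8) passed only with the replicate block (adjusted p = 0.0771, and 0.0427 blocked).

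Among mesenchymal regulators and cytoskeletal genes calls went both ways. Vim, the mesenchymal intermediate filament, fell from 449, 508 and 516 normalised counts to 186, 271 and 323 (1.91-fold lower, adjusted p = 0.00939), and Prrx1, a limb and fibroblast homeobox factor, fell from 78.4 ± 19.2 to 38.4 ± 15.2 (n = 3, edgeR adjusted p = 0.0293). The tropomyosins Tpm2 (2.18-fold lower) and Tpm1 (1.52-fold lower) were the 2 of 11 smooth muscle contractile genes that were called. In the mesenchymal list of 17 tested genes, Ly6c1 and Ly6a, both Ly6 surface proteins, were higher. All 6 of these calls were lost without at least 2 of the libraries in turn, with the highest adjusted p for Ly6a (0.314, without day 8 replicate 2).

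Ankrd1 (chromosome 19, 36111961 to 36120099), a nuclear cofactor that mechanical stress and TGF-β induce, was the strongest fall. It was at 14.5, 7.76 and 28.3 normalised counts on day 6 and at 0, 2.45 and 0 on day 8 (log2 fold change -4.02 ± 0.81, adjusted p = 0.00252), after 27.2 on day 3 and 1106 in MEFs. It was the only one called of 26 tested TGF-β and SMAD3 targets in either direction. The share called lower was thus 3.85%, against 3.70% of all genes, and in either direction 3.85%, against 6.68%. The median of that list was -0.02. Of 19 tested SMADs and TGF-β family ligands and receptors, Bmp1, a protease that processes procollagens and BMP antagonists, was called alone (10.4 ± 2.66 to 27.2 ± 10.1, n = 3, edgeR adjusted p = 0.0136), and the call was lost without 3 of the 6 libraries in turn. Smad2 was at 64.3 ± 4.24 and 75.02 ± 14.1 (adjusted p = 0.599). Col2a1 fell from 15.4, 13.2 and 8.10 to 0.618, 1.23 and 2.42 (8.71-fold lower, adjusted p = 0.00562). Crabp2, which carries retinoic acid to its receptor, fell from 492, 651 and 530 to 198, 162 and 278 (2.66-fold lower, adjusted p = 0.000198), and its mean went from 1101 on day 3 to 122 on day 10. Arg1 (arginase, 5.15-fold lower), Iqch (8.00-fold) and Cxcr5 (4.77-fold) fell too and, together with D10Jhu81e and Sh3d21 (4.00-fold and 5.18-fold lower) and like Ankrd1, Col2a1 and Crabp2, were called in all 6 fits that left out a library. The other large falls were of genes with few reads and leaned on single libraries. A730008H23Rik (7.34-fold lower, adjusted p = 0.0128) was called in 2 of the 6 fits, and Ssbp4 (4.36-fold lower, adjusted p = 0.0445) and Hmgb1-rs17 (3.24-fold lower, adjusted p = 0.0461), whose reads could be shared with Hmgb1, were called in 1 each.

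Nucleolar genes had the largest share of falls (33.3%) among the lists with at least 7 tested members. Of 27 tested nucleolar genes of ribosome biogenesis, 9 were lower (Ncl, Gnl3, Nop14, Dkc1, Nolc1, Ddx21, Nop58, Utp20 and Wdr43), none was higher, and the median log2 fold change was -0.29. Ncl (chromosome 1, 86344719 to 86359400) encodes nucleolin, an abundant factor of ribosomal RNA transcription and processing. It was at 1481, 1344 and 2085 normalised counts on day 6 and at 802, 554 and 1000 on day 8, without overlap (2.10-fold lower, log2 fold change -1.07 ± 0.19, adjusted p = 0.000684), and it was called in all 6 fits that left out a library. Gnl3 (nucleostemin) fell from 1428, 1308 and 2336 to 901, 507 and 1181 (1.97-fold lower, adjusted p = 0.00575). Dkc1, the pseudouridine synthase of box H/ACA particles, fell from 430, 352 and 505 to 258, 178 and 292 (1.78-fold lower, adjusted p = 0.00617).

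For most of these genes day 6 replicate 3 was the highest library and day 8 replicate 2 the lowest. Without day 6 replicate 3 only 1 of the 9 (Ncl) was called, and without day 8 replicate 2 only 2 were, while 10 were called without day 8 replicate 3. Other members were level, such as Fbl (fibrillarin), at 82.1, 83.8 and 81.0 on day 6 and 90.2, 93.7 and 61.3 on day 8. No nucleolar gene was called in Cont (median log2 fold change -0.21).

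Other abundant genes fell in the same way. Hsp90b1, the chaperone GRP94 of the endoplasmic reticulum, went from 1935, 1661 and 2926 to 1013, 751 and 1243 (2.19-fold lower, adjusted p = 0.000481), and Ola1, an ATPase of the Obg family, from 551, 612 and 798 to 289, 197 and 389 (2.26-fold lower, adjusted p = 0.000141). Zcchc17, an RNA-binding protein of the large ribosomal subunit, went from 302 ± 104 to 134 ± 23.1 (2.25-fold lower, adjusted p = 0.000525). All of these were called in each of the 6 fits that left out a library. Stmn2, a microtubule regulator best known in neurons and here among the most abundant transcripts, fell from 4407, 5642 and 6919 to 2113, 1705 and 4613 (2.03-fold lower, adjusted p = 0.00689), with an overlap between replicate 1 of day 6 and replicate 3 of day 8, and its call was lost without day 6 replicate 3 (0.0747), day 8 replicate 1 (0.0582) or day 8 replicate 2 (0.0613).

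Ribosomal proteins were listed after their values had been seen. Of 84 cytosolic ribosomal proteins tested, 11 were lower and 1 (Rpl10a) was higher, with a median of -0.15, and of 76 mitochondrial ones 10 were lower and 2 were higher, with a median of -0.11. Rpl36al went from 3425, 3458 and 5474 to 1827, 588 and 2828 (2.37-fold lower, adjusted p = 0.0047, lost without day 6 replicate 3 at 0.0639). Reads of ribosomal proteins can be shared with processed pseudogenes, and the summed level of the cytosolic list was wide on day 8 (156400, 115000 and 206700 normalised counts). The number of lower cytosolic members ranged from 3 (without day 6 replicate 3 or day 8 replicate 2) to 26 (without day 8 replicate 3), and of lower mitochondrial members from 1 (without day 6 replicate 3) to 15 (without day 8 replicate 3).

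**Figure D3:**
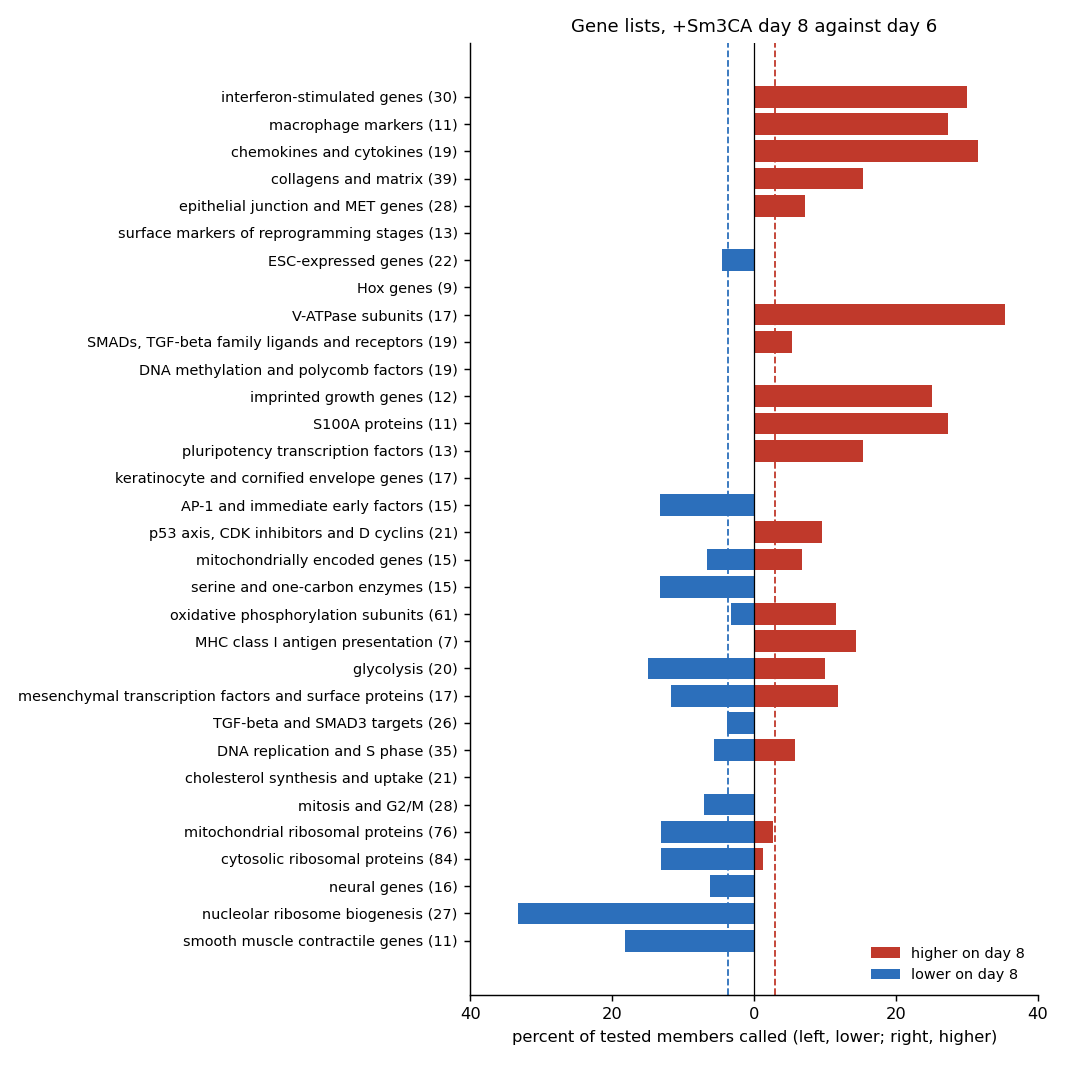
Percent of the tested members of each gene list (lists with at least 7 tested) that were called between day 8 and day 6 in +Sm3CA, to the right for higher and to the left for lower; the number tested is in brackets and the lists are ordered by their median change. The dashed lines are the shares over all tested genes, 2.98% higher and 3.70% lower; interferon-stimulated genes, chemokines and macrophage markers stand at the top and nucleolar genes (9 of 27 lower) near the bottom.

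Calls among energy genes went both ways, with a larger share of rises than over all genes tested. Of 61 tested subunits of oxidative phosphorylation, 7 were higher and 2 were lower (4 with the replicate block), with a median of 0.06. These shares are 11.5% and 3.28%, against 2.98% and 3.70% of all genes tested. Atp5g1, a ring subunit of ATP synthase, rose from 172, 244 and 243 to 334, 536 and 341 (1.82-fold, adjusted p = 0.00491, lost without day 8 replicate 2 at 0.0862), whereas Ndufa5, a complex I subunit, fell from 1221, 795 and 1512 to 421, 339 and 884 (2.16-fold lower, adjusted p = 0.00343). Without day 6 replicate 1 there was 1 higher call, and without day 6 replicate 3 or day 8 replicate 2 there were 2. Subunits of the V-ATPase, the proton pump of lysosomes, were also listed after their values had been seen, and 6 of 17 tested were higher and none was lower. Atp6v0e, one of them, was at 473, 526 and 543 on day 6 and at 993, 979 and 887 on day 8 (1.84-fold, adjusted p = 0.000679), and Atp6v0b rose 2.00-fold (adjusted p = 0.00118). Both were called in all 6 fits that left out a library, and the list's count was 2 to 7 in them.

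Pluripotency genes were at low levels on both days. Nanog had 2 reads over the 3 day 6 libraries and 24 on day 8, with 0.855, 0 and 1.35 normalised counts on day 6 and 8.03, 2.45 and 5.65 on day 8, against 202 ± 156 in embryonic stem cells (ESCs). The ratio per read sequenced was 9.12 with a 95% interval of 2.26 to 79.7 that covers counting error only, and the change did not pass the test (adjusted p = 0.0659). Tfcp2l1 (1.96 ± 0.976 to 10.4 ± 3.38, adjusted p = 0.0218) and Tcl1 (2 reads to 30, adjusted p = 0.031) were the 2 of 13 tested pluripotency regulators that were called higher, and both calls were lost in 5 of the 6 fits that left out a library. Their ESC levels were 281 and 445 normalised counts. Zfp42 (Rex1) was at 38.5, 31.0 and 51.3 on day 6 and 44.5, 28.8 and 60.5 on day 8, against 2812 in ESCs. Among 22 tested ESC-expressed genes none was called higher and 1 was called lower, the threonine dehydrogenase Tdh. It was 1.62-fold lower (edgeR adjusted p = 0.0319, lost without 4 of the 6 libraries in turn). The median log2 fold change of the list was 0.33, and 14 members had a positive change. Its summed level was 1157, 1507 and 1433 normalised counts on day 6 and 1734, 1532 and 1740 on day 8.

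The cassette genes were not called in either direction. Pou5f1 was at 89.2 ± 13.8 on day 6 and 79.9 ± 16.6 on day 8 (n = 3, edgeR adjusted p = 0.671), Sox2 at 10.7 ± 2.39 and 13.3 ± 6.23, Klf4 at 24.2 ± 2.80 and 13.1 ± 2.92, and Myc at 15.7 ± 0.990 and 7.98 ± 6.37. Cassette and endogenous transcripts were not separated. Reads were counted at the 5′ end, while the cassette carries its factors on a shared transcript. How far these levels follow cassette expression was not tested. None of 13 tested surface markers of reprogramming stages passed, among them Cd44 (267 ± 31.7 and 309 ± 66.9), Icam1 (14.9 ± 2.50 and 20.8 ± 7.88) and Thy1 (5.70 ± 2.17 and 8.96 ± 4.32). Over all genes, 849 were more than 4-fold higher in ESCs than in MEFs and 1518 more than 4-fold lower (9.65% and 17.3% of 8798 tested between these cells). Of the 673 ESC-high genes tested here 26 rose and 22 fell (3.86% and 3.27%, median log2 fold change 0.10), and of the 1291 MEF-high genes 55 rose and 36 fell (4.26% and 2.79%, median 0.10). Over all genes tested, 2.98% rose and 3.70% fell, with a median of 0.04. Both lists thus held slightly larger shares of rises and slightly smaller shares of falls.

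In Cont, which shares no library with +Sm3CA, 143 genes rose and 30 fell over the same days (1.40% and 0.293%, or 1.69% in either direction). Of the 305 genes higher in +Sm3CA, 251 had a positive change in Cont and 51 were called higher there, which is 16.7% of the +Sm3CA list and 35.7% of the Cont list. Of the 379 lower genes, 337 had a negative change in Cont and 9 were called lower, 2.37% and 30% of the lists. None was called in the opposite direction. Across genes the changes of both series correlated at r = 0.435, where genes are not independent replicates.

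The difference between the changes of the series was tested directly, and no gene passed (0 of 10237, with 936 at an unadjusted p under 0.05 and a smallest adjusted p of 0.0857 by edgeR, and 15 by DESeq2). The 5 genes with the smallest p were Chd9, G730013B05Rik, Rtp4, Ly6g6c and Dctpp1. Chd9, a chromatin remodeller, went from 112 ± 25.2 to 69.2 ± 7.61 in +Sm3CA and from 69.4 ± 6.12 to 110.1 ± 12.4 in Cont (n = 3 each, edgeR adjusted p = 0.0857 for the difference of the changes). G730013B05Rik was at 8.52 ± 1.76 and 15.8 ± 5.26 in +Sm3CA and at 12.5 ± 0.704 and 2.08 ± 0.926 in Cont (0.0857). Ly6g6c, which rose in +Sm3CA, was at 751 ± 39.1 and 654 ± 122 in Cont, and Dctpp1, a nucleotide pyrophosphatase (199 ± 31.9 and 328 ± 59.9 in +Sm3CA), was at 247 ± 21.98 and 193 ± 26.0 there (both 0.115). Lum and Cd59a had the same edgeR adjusted p for the difference, 0.115. In Cont, Cd59a was at 31.8 ± 3.63 and 36.6 ± 8.69 and Lum at 13.5 ± 21.5 and 5.81 ± 1.11. The day 6 mean of Lum in Cont rested on replicate 2, with libraries at 1.38, 38.3 and 0.878. Its day 8 libraries in Cont were at 4.53, 6.33 and 6.56. Without day 8 replicate 3 of +Sm3CA, 58 genes passed.

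**Figure D4:**
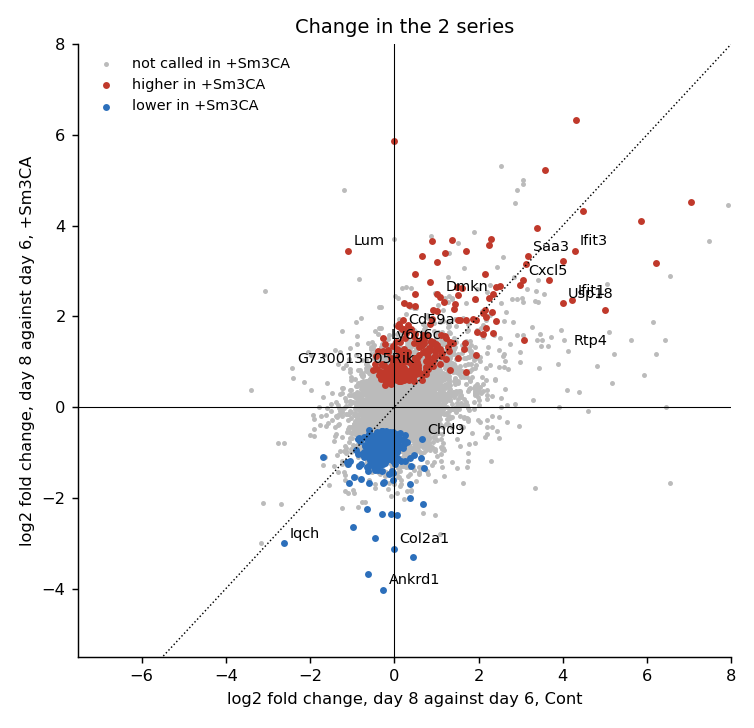
Log2 fold change of day 8 against day 6 for each tested gene in Cont (horizontal axis) and in +Sm3CA (vertical axis); red and blue points were called higher or lower in +Sm3CA and the dotted line marks equal change. Saa3 and Cxcl5 lie near the line, interferon genes such as Ifit1 and Usp18 lie to its right and Lum and Dmkn above it, while the interaction test passed for 0 genes.

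The summed interferon list in +Sm3CA was 953 ± 145, 758 ± 272, 1580 ± 340 and 1906 ± 279 normalised counts at days 3, 6, 8 and 10 (SD, n = 3), and in Cont it was 819 ± 153, 769 ± 40, 2697 ± 808 and 6412 ± 1075. The matrix list was 7544 ± 1105 on day 3 and 4684 ± 657 on day 10 in +Sm3CA, beside 5833 ± 154 on day 8, whereas in Cont it was 9756 ± 3216 on day 10. The nucleolar list was 24340 ± 1075, 24130 ± 2339, 18450 ± 5901 and 18930 ± 1344 on the 4 days, and the day 8 libraries at 19560, 12070 and 23720 included the lowest of the 6 and one above 2 of the day 6 libraries. Steps before and after share the day 6 or day 8 libraries with the comparison and are given as levels only.

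**Figure D5:**
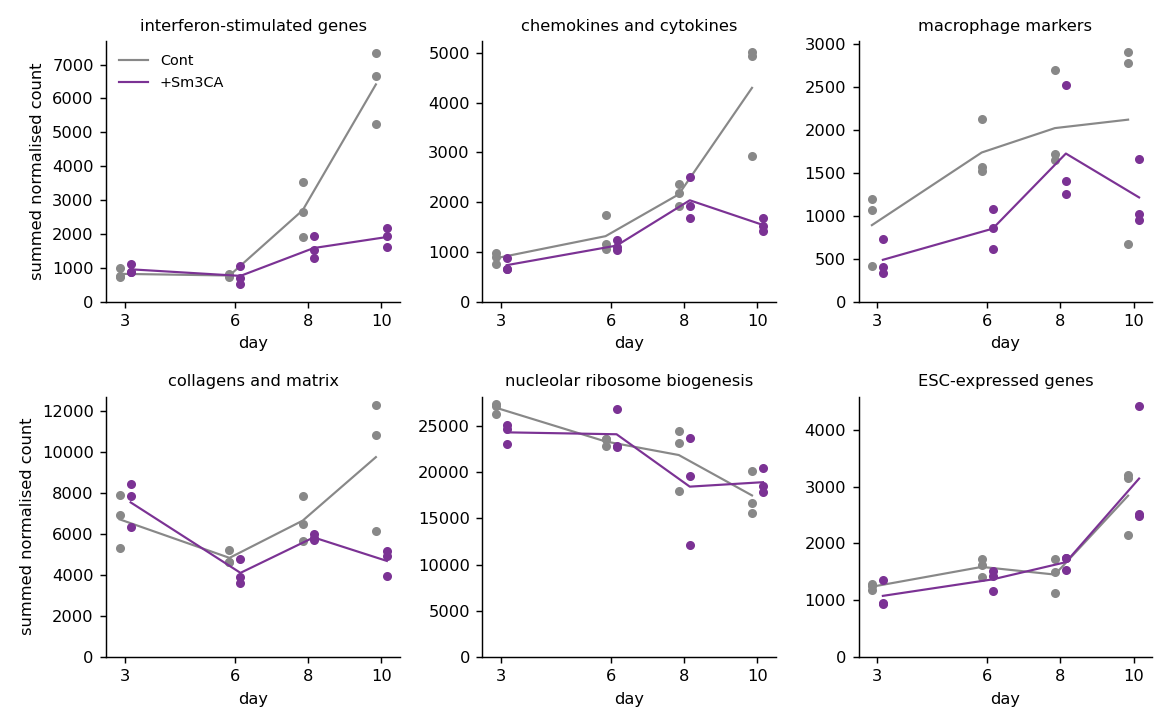
Summed normalised count of the genes of 6 lists (vertical axes, starting at 0) in each library on days 3, 6, 8 and 10, with lines through the means of Cont (grey) and +Sm3CA (purple). In +Sm3CA the interferon, chemokine, macrophage and matrix sums are higher in every day 8 library than in any day 6 library. The ESC-expressed sums are so by a narrow margin, while the nucleolar day 8 libraries overlap with day 6.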

How the data were processed

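RNA from sorted reprogramming cells was profiled by STRT RNA-seq. The values the authors deposited are raw counts of reads for each gene in each well. The submitters' processing notes name Bowtie 0.12.9, DESeq2 1.6.3 and mm10. The paper describes molecule counts as well but went on with read counts, and the values used here are reads. Here, the wells of one replicate were summed (3 per library on days 6 and 8). Genes were tested in edgeR 4.0.16 (TMM scaling, filterByExpr, quasi-likelihood F-test), with all 8 reprogramming groups fitted jointly, with Benjamini-Hochberg adjustment over 10237 genes and a threshold of 0.05, so that all groups share one estimate of spread; MEFs and ESCs were compared in a separate fit. The SE beside a log2 fold change was derived from that test, as the absolute change divided by the square root of the F statistic. Normalised counts are divided by DESeq2 1.42.0 size factors over 30 libraries. Counts were simulated for day 8 against day 6 in +Sm3CA over 10237 genes. Every gene was given the same spread, and no library was given a deviation of its own. In these counts edgeR recovered 155 of 200 genes changed 4-fold, with 4 false calls. It recovered 94 of 102 above a mean of 50 reads per library and 61 of 98 at or below it. DESeq2 recovered 149 with 14 false calls (8.59% of its calls). The real calls leaned on single libraries, so these rates do not give the error of the calls made here.

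The genes named are the 10 largest changes in each direction (called, libraries not overlapping, mean of at least 10 normalised counts), the 5 smallest p in each direction, the leading called members of each list, the 5 smallest interaction p and a fixed set of reprogramming genes; further genes were taken from the lists or to explain a count, after their values were seen. The comparison and the lists were chosen with earlier results of these data known. According to the series' design text, replicate numbers pair the samples across days within a series; deviations of same-numbered +Sm3CA libraries correlated at 0.009, -0.004 and 0.148. No 2 libraries of the same group held identical counts. Intervals of read ratios are exact (Clopper-Pearson) at the 95% level and cover counting error only, since PCR copies were counted. The number of cells sorted per library differs between the labels and the methods. Coordinates are from GENCODE M21 (GRCm38) by symbol and promoters from RefSeq (GRCm38.p6). Alternatives were DESeq2 size factors, DESeq2's Wald test, no count filter, a fit of the compared groups alone, a replicate block, 1 well per library and leaving out each library.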

Additional observations from a re-analysis of the deposited data

How the results depend on the processing

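In +Sm3CA the numbers of higher and lower genes (305 and 379) were 142 and 110 when only the groups compared entered the fit and 159 and 158 with 1 well per library, and from 102 to 438 and from 61 to 624 when 1 library was left out. In Cont (143 and 30) they were 215 and 50 with no filter, 94 and 12 with 1 well per library, and 56 to 131 and 5 to 24 without 1 library. The difference between the series (0 genes) was passed by 15 genes in the Wald test, by 49 with no filter, by 1 in the fit of the compared groups and by 0 to 58 without 1 library. The genes higher or lower in ESCs than in MEFs numbered 2367, and 4314 at more than 2-fold. With the replicate block, 318 genes were higher and 418 lower, 286 and 370 of them the same genes, and of the genes chosen by rule it changed the calls of Cd14 and Col1a1 in +Sm3CA and of Aif1 in Cont (adjusted p = 0.0653, and 0.0221 blocked), and no other. Cxcl10, a further list member, was also lost. DESeq2 size factors changed no call of these genes. Signs turned for Zfp42 (log2 fold change -0.16 with 1 well per library, -0.12 to 0.38 without 1 library), Smad3 (-0.05 to 0.50) and Sox2 (-0.11 to 0.55). The cause of these shifts was not tested. Genes with few reads limit what 3 libraries a day can show.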

Other observations

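Further groups held a few called genes each in +Sm3CA. Among 12 tested imprinted growth genes, H19 (16.2, 6.99 and 6.75 normalised counts on day 6 and 32.8, 36.8 and 50.05 on day 8, edgeR adjusted p = 0.00239), Plagl1 and Rian were higher and none was lower, and H19 was called in all 6 fits that left out a library while Plagl1 and Rian were each lost in at least 3. Of 11 S100A proteins 3 were higher, led by S100a1 (174 ± 17.2 to 310 ± 11.2, adjusted p = 0.00195), and S100a14 and S100a3 were lost in 5 and in 6 of those fits. H2-K1, a classical MHC class I heavy chain, was the 1 called of 7 tested antigen presentation genes (11.1, 20.2 and 20.2 to 45.1, 43.5 and 41.2, adjusted p = 0.00428), where reads could be shared with other class I genes.

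Cell cycle genes held few calls by number, but in shares above those over all genes tested, except that no mitotic gene was higher. Of the tested replication genes 5.71% were higher and 5.71% lower, with a median log2 fold change of -0.02. Of the mitotic genes 7.14% were lower, and over all genes tested 2.98% were higher and 3.70% lower. Pcna, the replication clamp (402 ± 87.7 to 656 ± 38.0, adjusted p = 0.0103), and Tk1 were higher and Lig1 (136 ± 33.1 to 75.7 ± 28.3, adjusted p = 0.0102) and Pola1 were lower among 35 tested replication genes, and 2 of 28 mitotic genes, Cenpe and Cenpf, were lower. In glycolysis the glucose transporter Slc2a1 and Aldoa were higher and Hk2, Pfkp and Eno3 were lower, and in these 3 lists no gene was called without day 6 replicate 3 and only Tk1 without day 8 replicate 2. Of the immediate early genes, Fosb and Fos were the 2 lower genes of 15 tested (2.74-fold and 1.79-fold lower). Trp53 and Trp53inp1 were the 2 higher of 21 tested genes of the p53 axis (1.85-fold and 1.84-fold), and all 4 of these calls were lost without at least 2 of the libraries in turn. From the mitochondrial genome mt-Cytb was higher (13100 ± 2804 to 22200 ± 6835, adjusted p = 0.0193) and mt-Rnr1 lower (13520 ± 582 to 7942 ± 3351, adjusted p = 0.0318) of 15 tested, in a list chosen after its values were seen, and neither was called without day 6 replicate 3 or without day 8 replicate 2.

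Of 15 tested enzymes of serine and one-carbon metabolism, Tdh and Mthfd2 (1.56-fold lower, edgeR adjusted p = 0.0387, called in 1 of the 6 fits that left out a library) were lower. No Hox gene (9 tested), cholesterol gene (21 tested) or DNA methylation and polycomb factor (19 tested) was called. Markers of endothelium, muscle, extraembryonic endoderm, trophoblast, germline and the 2-cell stage had 0 called genes among 2, 1, 6, 5, 2 and 2 tested, and no red cell marker reached the filter.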
